A study of Sus scrofa with 9 samples.

Results

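The genes of 3 superoxide dismutases (SOD1, SOD2 and SOD3) and 7 other antioxidant enzymes (CAT, GPX1, GPX3, GPX4, HMOX1, NQO1 and TXNRD1) were followed in endothelial cells of the pig coronary artery, which form the inner lining of that vessel. They were read from every probe set to which the platform annotation gives 1 gene symbol, that of a member. This gave 13 of the 24123 probe sets on the Affymetrix porcine array. GPX4 had 2 probe sets, TXNRD1 had 3, and the other 8 genes had 1 each. All 13 probe sets were among the 15275 that were bright enough to be tested. The genes were listed by name, with earlier results of these arrays known.

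The series held 9 arrays in 3 groups of 3. Passage 4 cells had been passaged weekly in culture and are called senescent in the labels. Regenerated cells had grown back in the living vessel after its endothelium was removed, and were scraped off and cultured with no passage after that. Passage 1 cells, the controls, came from primary culture and had been cultured for 1 week. All groups were pig cells at basal condition. The labels name no strain, age or sex, and do not say how long the endothelium had regrown or whether each array stands for an animal or culture of its own. P-values therefore cover the scatter of these arrays alone, and this scatter may be technical.

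Superoxide forms when oxygen takes up a single electron, in mitochondria and at NADPH oxidases. Superoxide dismutases turn it into hydrogen peroxide, which catalase, glutathione peroxidases and peroxiredoxins then reduce to water, drawing on glutathione, thioredoxin and NADPH. In the vessel wall superoxide also destroys nitric oxide, so that the dismutases bear on how long this relaxing signal of the endothelium lasts.

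The values are array signals on a linear scale, and a signal shows changes of 1 probe set between arrays, not levels of different genes. Median signals ran from 86.5 to 109 between arrays, and the number of arrays limits the precision. Differences are given on the log2(signal + 16) scale, which understates the change of dim genes, with limma's standard error (SE) and an adjusted p over all 15275 probe sets. A difference passed if its adjusted p was under 0.05. Passage 4 and regenerated cells were both set against the same passage 1 arrays, so these comparisons are not independent of each other. Centring each array on its median moved the median difference of all tested probe sets between passage 4 and passage 1 to -0.12, against 0.04 with the deposited scaling.

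The endothelial label was checked on PECAM1 and CDH5, which encode junction proteins of endothelial cells and read 5519.6 to 9079 and 8524 to 11246 in the 9 arrays. Of 16 endothelial markers 12 had a probe set and 10 were tested, while those of KDR and VWF were below the filter. Against passage 1, 1 of the 10 was called lower at passage 4, and 1 higher and 1 lower in regenerated cells. Between passage 4 and regenerated cells 1 was called lower at passage 4. Some of these markers varied more between groups than PECAM1 and CDH5. CLDN5 read 158 to 214 in regenerated cells and 512 to 731 at passage 1, while ENG read 3168 to 6169 and 552 to 1998. Arrays also differed in labelling. In bacterial RNAs added as controls, the signal at the 5' end relative to the 3' end was -1.92 to -2.41 (log2) in the passage 4 arrays and -2.25 in passage 1 array 1. In the regenerated arrays it ran from -4.37 to -5.31, and passage 1 arrays 2 and 3 had -4.69 and -4.42. The labels give 1 ug of RNA per labelling for passage 4 and passage 1 cells and 0.5 to 1 ug for regenerated cells, so that input and group cannot be told apart. Values with this division of the arrays as a block, called the labelling block below, are given where they end a call or turn a direction. All passage 4 arrays share a side of this division with passage 1 array 1, and all regenerated arrays share the other with passage 1 arrays 2 and 3. With the block, passage 4 is thus in effect set against passage 1 array 1 alone, and regenerated cells against passage 1 arrays 2 and 3. A call kept, lost or gained with it therefore cannot separate labelling from group.

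At passage 4, SOD3 and GPX3, both genes of secreted enzymes, fell past the threshold against passage 1. SOD3 was 6.14-fold lower (log2 -2.62, SE 0.51, adjusted p = 0.0174) and GPX3 was 5.25-fold lower (log2 -2.39, SE 0.51, adjusted p = 0.0257). Those were 2 of 13 probe sets, or 15.4%, while 4.79% of all tested probe sets passed in either direction and 2.08% passed as lower. An unadjusted limma p under 0.05 was found for 7 of 13 (53.8%), against 19.7% of all tested probe sets. These 7 take in both TXNRD1 probe sets 1 and 2, and GPX4 probe set 2, which was higher. With the brightest probe set of each gene alone, 5 of 10 (50%) had such a p. Of the 13 probe sets 8 had a lower mean at passage 4, as had 7049 of all 15275 tested. The median difference of the 13 was -0.39, against 0.04 over all tested probe sets. Under median centring 11 of 13 were lower, and so were 9476 of all 15275. With the brightest probe set of each gene alone, 7 of 10 were lower with the deposited scaling.

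**Figure D1:**
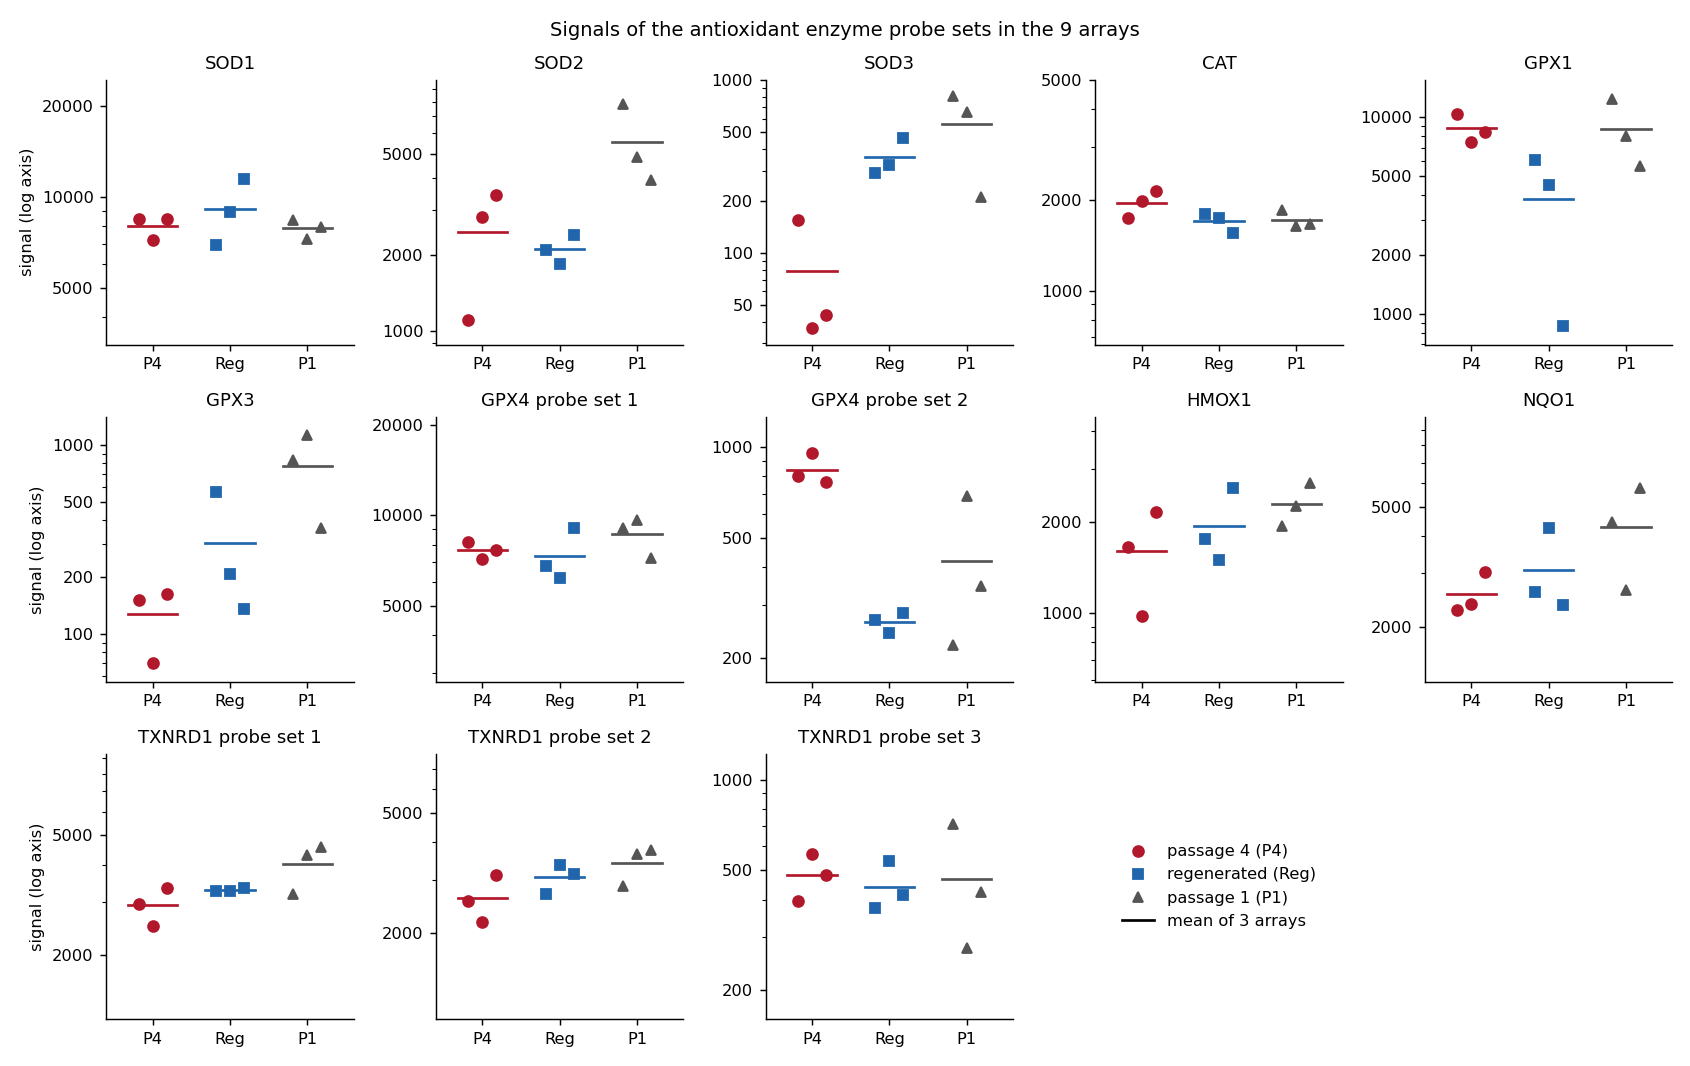
Signals (log axis) of the 13 probe sets in each of the 9 arrays, with passage 4 (P4), regenerated (Reg) and passage 1 (P1) from left to right, and bars at the mean of 3 arrays. SOD3 and GPX3 have their lowest means at P4, SOD2 has its highest at P1, and SOD1 and CAT differ little between groups.

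None of the antioxidant probe sets passed the threshold between regenerated and passage 1 cells. In that comparison 0 of 13 passed by limma after adjustment and 3 (23.1%) had an unadjusted p under 0.05. Of all tested probe sets 5.5% passed and 22.0% had such an unadjusted p, so the members lay near the background share. The means of 12 of 13 were lower in regenerated cells, as were those of 7740 of all 15275 tested. The median difference of the 13 was -0.26, against -0.01 over all tested probe sets. With the brightest probe set of each gene alone, 9 of 10 were lower. Between passage 4 and regenerated cells 2 of 13 passed, or 15.4%, SOD3 as lower and the dimmer GPX4 probe set as higher. Of all tested probe sets 12.5% passed there, 4.36% as lower and 8.12% as higher. An unadjusted limma p under 0.05 was found there for 3 of 13 (23.1%), against 28.6% of all tested probe sets.

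**Figure D2:**
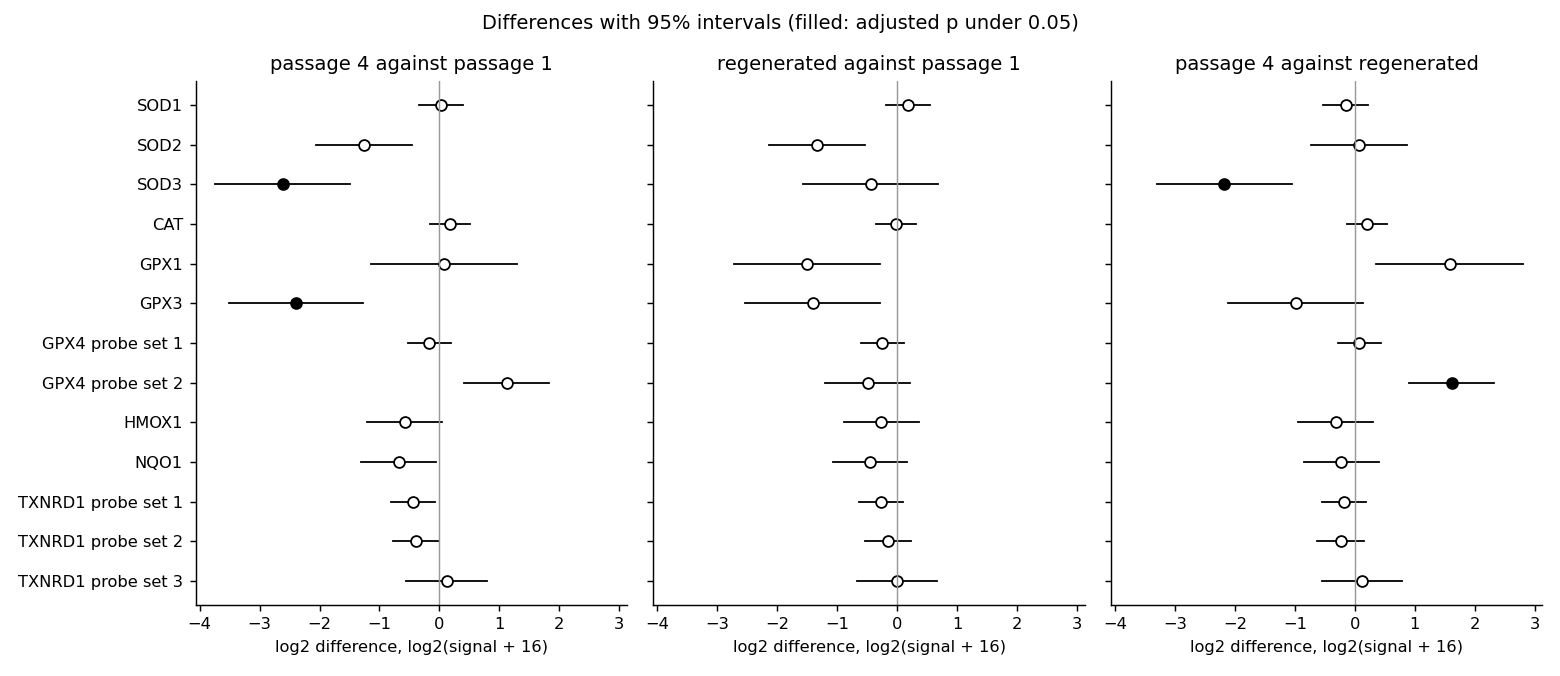
Log2 differences of the 13 probe sets in the 3 comparisons (points) with their unadjusted 95% intervals (lines). Filled points mark adjusted p under 0.05, which SOD3 and GPX3 had for passage 4 against passage 1, and SOD3 and GPX4 probe set 2 for passage 4 against regenerated.

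SOD1 encodes the copper and zinc dismutase of the cytosol. Its signals were 8487, 7190.2 and 8459 at passage 4, 6942, 8956 and 11459 in regenerated cells, and 8402, 7267 and 7972 at passage 1. The 3 groups overlapped, and the widest spread was that of the regenerated arrays. The difference between passage 4 and passage 1 was 0.03 (95% interval -0.35 to 0.40, adjusted p = 0.950), so a change of more than 0.40 in either direction lay outside that interval. Regenerated and passage 1 cells differed by 0.18 (95% interval -0.19 to 0.56, adjusted p = 0.572).

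SOD2 encodes the manganese dismutase of mitochondria, a gene known to be induced by NF-kB. It gave signals of 1109, 2809.8 and 3433 at passage 4, of 2090.5, 1844 and 2392 in regenerated cells, and of 7807, 4849 and 3953 at passage 1. Every passage 4 and every regenerated array lay below every passage 1 array. The mean was 2450.3 ± 1203 at passage 4 and 2109 ± 274 in regenerated cells, against 5537 ± 2017 at passage 1 (SD, n = 3). Neither difference passed: it was -1.26 at passage 4 (SE 0.37, adjusted p = 0.0759) and -1.33 in regenerated cells (SE 0.37, adjusted p = 0.0579).

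Both SOD2 values lay close to the threshold. They passed when arrays were centred on their median, with -1.42 at passage 4 (adjusted p = 0.0454) and -1.36 in regenerated cells (adjusted p = 0.0486). The regenerated difference also passed when only the arrays of the 2 groups were fitted (adjusted p = 0.0182), and without passage 4 array 1 (adjusted p = 0.0117) or array 3 (adjusted p = 0.0483). Passage 4 array 1 was the lowest of all 9 arrays, and without it the passage 4 difference was -0.77 (adjusted p = 0.175). Passage 4 and regenerated cells differed by 0.07 in SOD2 (95% interval -0.73 to 0.87, adjusted p = 0.922), which turned to -0.05 with median centring and to -0.76 with the labelling block.

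SOD3 encodes the extracellular copper and zinc dismutase, which binds to the matrix of the vessel wall and is known there mainly as a product of smooth muscle cells. Its probe set read 155, 36.9 and 43.6 at passage 4, 292, 324 and 462 in regenerated cells, and 807, 653 and 210.2 at passage 1. All passage 4 arrays were below all others, while regenerated and passage 1 arrays overlapped. Only 1 of the 3 passage 4 arrays lay above its own 40th percentile of signal, so that the low end is dim, whereas all 6 other arrays did. SOD3 averaged 78.5 ± 66.4 at passage 4, 359 ± 90.7 in regenerated cells and 557 ± 309.9 at passage 1 (SD, n = 3).

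SOD3 was also 4.53-fold lower at passage 4 than in regenerated cells (log2 -2.18, SE 0.51, adjusted p = 0.0183). Regenerated and passage 1 cells differed by -0.44 (SE 0.51, 95% interval -1.56 to 0.68, adjusted p = 0.664). This last interval is wide and takes in both a rise and a fall. With the labelling block the difference between passage 4 and passage 1 was -3.34, which rests on passage 1 array 1 alone. The call against regenerated cells was lost with that block (-3.26).

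Single arrays decided SOD3 in places. The call against passage 1 was lost without passage 1 array 2 (-2.41, adjusted p = 0.0742), without passage 4 array 2 (-2.31, adjusted p = 0.0675) and without passage 4 array 3 (-2.39, adjusted p = 0.0720). That against regenerated cells was lost without passage 4 array 2 or 3 or regenerated array 2 or 3, with adjusted p of 0.0720, 0.0697, 0.0589 and 0.0760. The difference stayed between -2.71 and -1.87 with any array left out.

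Smooth muscle markers were set beside SOD3. ACTA2, which encodes smooth muscle actin, read 10501, 485 and 1140.1 at passage 4, 10021, 12254 and 18924 in regenerated cells, and 13189, 2519 and 196 at passage 1. In each of the 3 groups the order of the 3 arrays was the same for ACTA2 as for SOD3. ACTA2 was singled out after its values were seen, and it was 1 of 7 tested smooth muscle markers. TAGLN, CNN1 and MYL9 kept the order of SOD3 at passage 4 and passage 1 but not in regenerated cells, CALD1 kept it at passage 1 alone, and SMTN and ACTG2 kept it in no group. The arrays with ACTA2 signals from 10021 to 13189 were passage 4 array 1, regenerated arrays 1 and 2 and passage 1 array 1. Their SOD3 signals were 155, 292, 324 and 807. This range was also set after the values were seen, and other markers were not matched in these arrays. In the same order CNN1 read 92.1, 419, 343 and 399, and TAGLN read 10479, 11340, 6376 and 10231. These values therefore do not show SOD3 at equal smooth muscle content.

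The summed signal of the 9 smooth muscle markers with a probe set, 7 of which were tested, was 18409 to 33941 at passage 4, 33682 to 47964 in regenerated cells and 18182 to 38971 at passage 1, and this sum did not keep the order of SOD3 in regenerated cells. DES and MYOCD, which mark differentiated smooth muscle, were below the filter. Fibroblast markers, 10 with a probe set and 8 tested, summed to 6099 to 10148 at passage 4, 2385 to 3496 in regenerated cells and 1433 to 1659.7 at passage 1, with COL3A1 and DPT below the filter. POSTN, which encodes the matrix protein periostin, made up most of the passage 4 sum, at 4892 to 9212. It read 13.1 to 1500 in regenerated cells and 685 to 1103 at passage 1. Without POSTN the other 9 summed to 936 to 1207 at passage 4, 1996 to 2616 in regenerated cells and 557 to 855 at passage 1. Against passage 1, 3 of the 8 tested fibroblast markers were called higher in regenerated cells, where 2.99% of all tested probe sets were. At passage 4, 0 were called in either direction, although all passage 4 arrays lay above all passage 1 arrays in POSTN. Between passage 4 and regenerated cells 1 fibroblast marker was called higher and 2 lower at passage 4. Of the smooth muscle markers 1 was called higher in regenerated cells than at passage 1, and 1 lower at passage 4 than in regenerated cells. Between passage 4 and passage 1, 0 smooth muscle markers were called. The part of other cell types in the SOD3 result was not tested. Fewer cells of a type and less RNA per cell cannot be told apart in RNA of whole cultures.

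**Figure D3:**
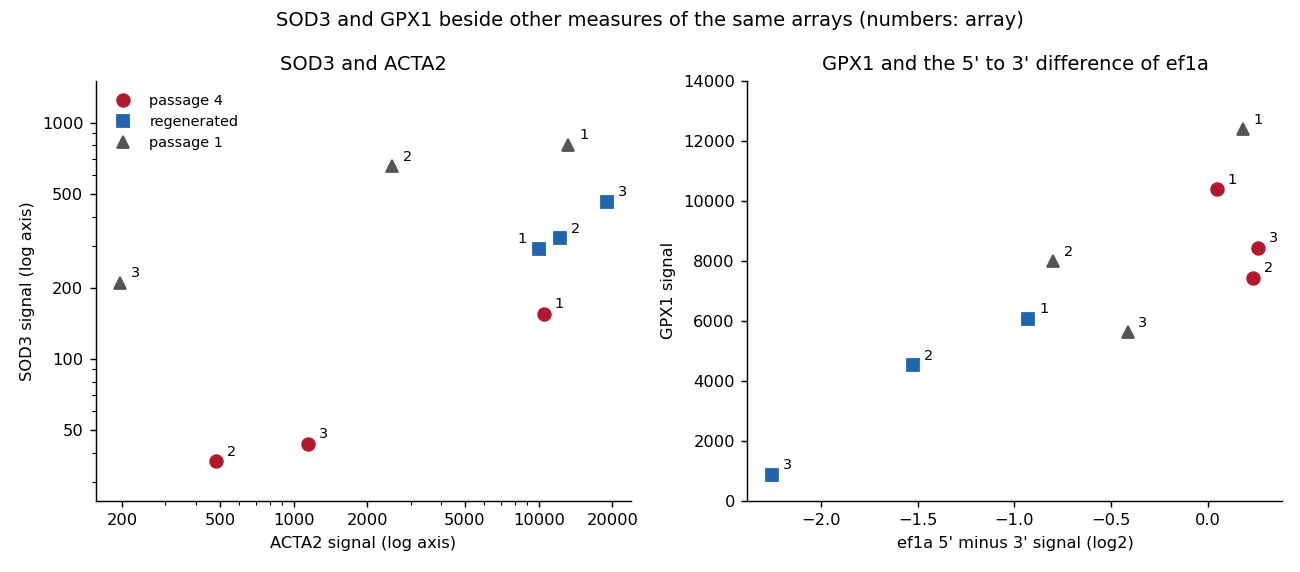
Left, SOD3 signal against ACTA2 signal (both log axes); right, GPX1 signal against the 5' minus 3' signal of ef1a (log2), in the 9 arrays, with numbers for the array within its group. Within each group the array with more ACTA2 had more SOD3, which held for ACTA2 alone of 7 tested smooth muscle markers, and regenerated array 3 was lowest in both measures on the right.

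Among the proteins that supply the dismutases with their metals, 3 of the 5 listed genes were tested and none passed in any of the 3 comparisons. CCS, the copper chaperone of SOD1, differed by 0.08 between passage 4 and passage 1 (adjusted p = 0.866) and by -0.46 between regenerated and passage 1 cells (adjusted p = 0.190).

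Catalase is the peroxisomal enzyme that splits hydrogen peroxide. CAT signals were 1738, 1985 and 2134 at passage 4, 1796, 1741 and 1554 in regenerated cells, and 1850.1, 1638 and 1665 at passage 1. The groups overlapped throughout. CAT differed by 0.18 between passage 4 and passage 1 (95% interval -0.16 to 0.52, adjusted p = 0.589) and by -0.02 between regenerated and passage 1 cells (95% interval -0.35 to 0.32, adjusted p = 0.965).

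GPX1 encodes the selenium-dependent glutathione peroxidase of the cytosol and mitochondria. Its signals were 10395, 7446 and 8441 at passage 4, 6073, 4527 and 871 in regenerated cells, and 12391, 7997 and 5628 at passage 1. Regenerated arrays were all below passage 4 arrays and overlapped with passage 1 arrays, and regenerated array 3 stood far below the rest. The difference was -1.51 between regenerated and passage 1 cells (SE 0.56, adjusted p = 0.140) and 1.58 between passage 4 and regenerated cells (SE 0.56, adjusted p = 0.0872), and neither passed.

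Regenerated array 3 carried much of the GPX1 difference. Without it the regenerated difference from passage 1 was -0.65 (adjusted p = 0.273) and that of passage 4 from regenerated cells was 0.72 (adjusted p = 0.160). Without regenerated array 1, the brightest of its group, both passed, at -2.04 (adjusted p = 0.0463) and 2.11 (adjusted p = 0.0264). With the labelling block passage 4 and regenerated cells differed by 0.70 (adjusted p = 0.746).

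A measure of RNA or labelling quality was lowest where GPX1 was lowest. The 5' minus 3' signal of the ef1a control transcript was 0.05, 0.23 and 0.26 (log2) at passage 4, -0.93, -1.52 and -2.25 in regenerated cells, and 0.18, -0.80 and -0.42 at passage 1. Among the regenerated arrays the order was the same in this measure as in GPX1, with array 3 lowest in both. The ef1a order differed from that of GPX1 at passage 4 and at passage 1. Passage 4 array 1 had the lowest ef1a value and the highest GPX1 signal of its group. The outcome depends on the control transcript. For the actin control the values were -0.35, -0.54 and -0.45 at passage 4 and -1.65, -2.16 and -2.78 in regenerated cells, both in the order of GPX1. At passage 1 they were -0.67, -1.71 and -1.37, in another order. The gapdh control kept the order of GPX1 in regenerated cells alone. The part of these measures in the GPX1 values was not tested. Passage 4 and passage 1 cells differed by 0.08 in GPX1 (95% interval -1.15 to 1.30, adjusted p = 0.959), which turned to -0.08 with median centring and -0.51 with the labelling block.

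GPX3 encodes the secreted glutathione peroxidase of plasma and the extracellular space. Its probe set gave 152, 69.9 and 162 at passage 4, 565, 209 and 136 in regenerated cells, and 839, 1128 and 364 at passage 1. Passage 4 arrays were all below passage 1 arrays, and the regenerated arrays spread from within the passage 4 range to within that of passage 1. The means were 128 ± 50.6 at passage 4, 303 ± 229 in regenerated cells and 777 ± 386 at passage 1 (SD, n = 3).

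Regenerated cells differed from passage 1 by -1.41 in GPX3 (SE 0.51, adjusted p = 0.133), and passage 4 differed from regenerated cells by -0.98 (SE 0.51, adjusted p = 0.234). Regenerated array 1 was the brightest of its group, and without it the regenerated difference was -1.96 and passed (adjusted p = 0.0310). The passage 4 call against passage 1 was lost with the labelling block (-2.64, adjusted p = 0.140). It was lost also without passage 1 array 2 (-2.06, adjusted p = 0.106) and without passage 4 array 1, 2 or 3, with adjusted p of 0.0592, 0.0950 and 0.0556.

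GPX4, the glutathione peroxidase that reduces lipid peroxides in membranes and is known as a brake on ferroptosis, was read by 2 probe sets that did not agree. The brighter read 8188, 7161 and 7656 at passage 4, 6794, 6183 and 9096 in regenerated cells, and 9109, 9639.6 and 7234 at passage 1. It overlapped between all groups, at -0.17 (adjusted p = 0.644) between passage 4 and passage 1 and 0.08 (adjusted p = 0.802) between passage 4 and regenerated cells.

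The dimmer GPX4 probe set read 802, 954 and 767 at passage 4, 267, 242 and 281 in regenerated cells, and 220.1, 686 and 347 at passage 1. All passage 4 arrays were above all others. It was 3.06-fold higher at passage 4 than in regenerated cells (log2 1.61, SE 0.33, adjusted p = 0.00925), a call kept in each of the 19 alternative settings. Against passage 1 it differed by 1.12 (SE 0.33, adjusted p = 0.0763), which passed without passage 1 array 2 (1.54, adjusted p = 0.0176). With the labelling block, which sets passage 4 against passage 1 array 1 alone, the difference was 1.85. The brighter probe set of the same gene did not pass, so the value holds for that probe set and is uncertain for GPX4.

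**Figure D4:**
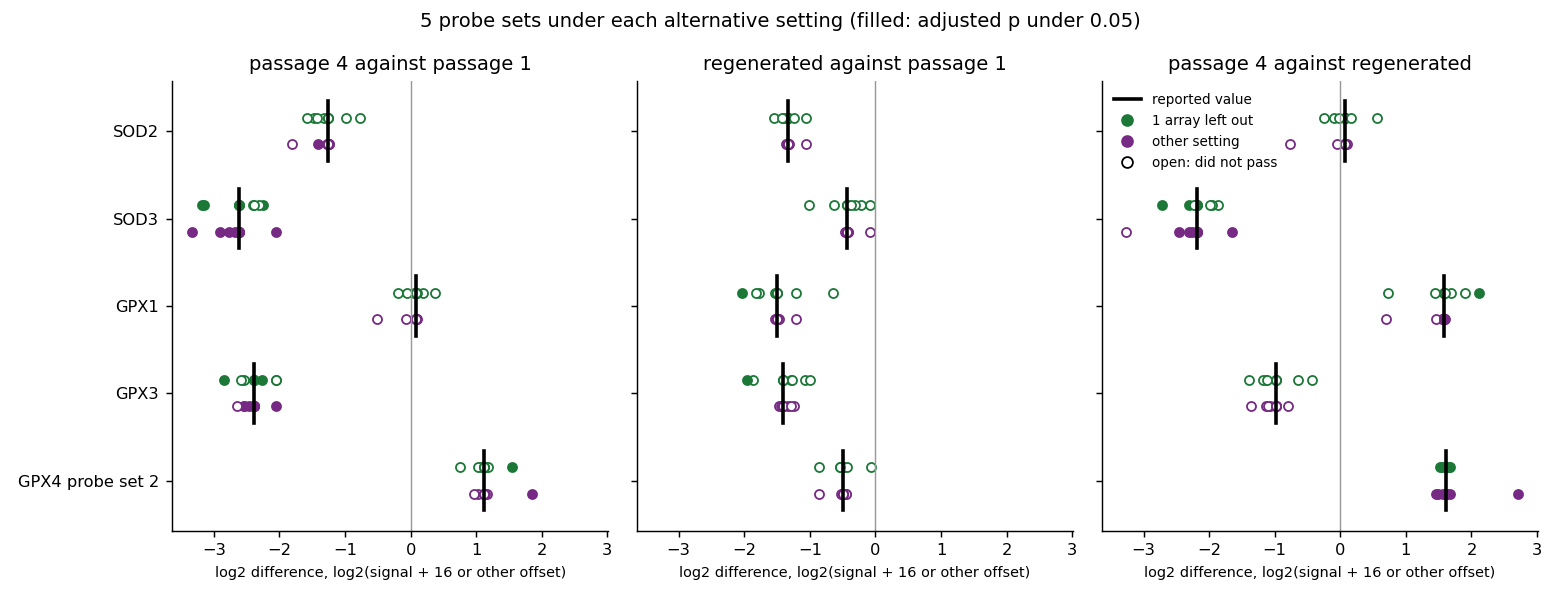
Log2 differences of 5 probe sets in the 3 comparisons under each alternative setting, with 1 array left out (upper row of points) or another choice changed (lower row), and a black bar at the reported value. Filled points passed; GPX4 probe set 2 stayed past the threshold throughout between passage 4 and regenerated cells, while SOD3 and GPX3 each lost their calls in some settings.

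HMOX1, NQO1 and TXNRD1 are classical targets of the transcription factor NRF2, which switches on antioxidant genes under oxidative or electrophilic stress. None of their 5 probe sets passed in any comparison. HMOX1 encodes heme oxygenase 1, which breaks down heme. It read 1656, 979 and 2165 at passage 4, 1759, 1499.5 and 2594 in regenerated cells, and 1945, 2259 and 2702 at passage 1. The groups overlapped, and the differences from passage 1 were -0.58 at passage 4 (95% interval -1.20 to 0.04, adjusted p = 0.297) and -0.26 in regenerated cells (adjusted p = 0.636).

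NQO1, a quinone reductase, read 2265, 2372 and 3034 at passage 4, 2613, 4231 and 2364 in regenerated cells, and 4453, 2639 and 5748 at passage 1. Passage 1 array 2 lay among the arrays of the other groups. The difference from passage 1 was -0.68 at passage 4 (SE 0.29, adjusted p = 0.212) and -0.45 in regenerated cells (SE 0.29, adjusted p = 0.384).

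TXNRD1 encodes the cytosolic thioredoxin reductase, a selenoprotein that keeps thioredoxin reduced. Its brightest probe set read 2955, 2512 and 3342 at passage 4, 3282, 3267 and 3359 in regenerated cells, and 3193, 4295 and 4565 at passage 1. It differed between passage 4 and passage 1 by -0.44 (SE 0.17, adjusted p = 0.167), and by -0.60 without passage 1 array 1, when it passed (adjusted p = 0.0429). Another probe set differed by -0.39 (adjusted p = 0.253) and the dimmest of the 3 by 0.12 (adjusted p = 0.879).

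Counted over the members, 4 of 13 probe sets did not overlap between passage 4 and passage 1 arrays, or 30.8%: SOD2, SOD3 and GPX3 as lower and GPX4 probe set 2 as higher. Over all tested probe sets 24.9% did not overlap there. Between regenerated and passage 1 arrays only SOD2 did not overlap, which is 7.69% of the members, against 23% of all tested probe sets. Between passage 4 and regenerated arrays 3 did not overlap, or 23.1%, against 36.2% of all tested probe sets.

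The rest of the redox system was read from a list of 125 genes, with the brightest probe set of each. Of these 82 had a named probe set and 66 were tested. At passage 4, 3 of the 66 rose and 4 fell against passage 1, where 2.71% of all tested probe sets were called higher and 2.08% lower. In regenerated cells 1 rose and 5 fell against passage 1, with 2.99% and 2.51% over all tested probe sets. Between passage 4 and regenerated cells 1 was higher and 3 were lower, or 6.06% of the 66, against 12.5% of all tested probe sets (8.12% higher and 4.36% lower). The falls against passage 1 take in NCF1, which passed the brightness filter only through the passage 1 arrays, and without it 3 and 4 genes fell. The medians of the 66 differences were -0.08, -0.06 and -0.08 in these 3 comparisons. With median centring none of the 66 genes rose at passage 4 against passage 1 and 4 fell, and with the labelling block 0 passed in that comparison.

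TXNIP encodes the thioredoxin-interacting protein, an inhibitor of thioredoxin and a brake on glucose uptake. It read 254, 536 and 249.5 at passage 4, 392, 550.5 and 472 in regenerated cells, and 1014, 2359 and 3095 at passage 1. Both groups lay wholly below passage 1. TXNIP fell by 2.53 (log2) at passage 4 (SE 0.39, adjusted p = 0.00515) and by 2.02 in regenerated cells (SE 0.39, adjusted p = 0.0135). With the labelling block the passage 4 value lost its call, at -1.60 (adjusted p = 0.0925). The regenerated call was lost without regenerated array 3, at -2.03 (adjusted p = 0.0517).

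Thioredoxin itself, TXN, differed by -0.16 at passage 4 (adjusted p = 0.664) and by -0.07 in regenerated cells (adjusted p = 0.830) against passage 1. GLRX3, a glutaredoxin of iron and sulfur cluster handling, read 6001, 6463 and 7202 at passage 4 and 4475, 4354 and 4278 in regenerated cells, against 4993, 5410.1 and 5800.1 at passage 1. It was higher at passage 4 than in regenerated cells by 0.58 (SE 0.13, adjusted p = 0.0132), a call lost with median centring (0.45), with no intensity trend, with the labelling block (0.75) and without passage 4 array 3 (0.51, adjusted p = 0.0726).

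The 6 tested genes of peroxiredoxins and sulfiredoxin, which reduce peroxides through thioredoxin or restore that activity, held 0 calls in all 3 comparisons. Their differences from passage 1 lay between -0.07 and 0.26 at passage 4 and between -0.24 and 0.47 in regenerated cells. PRDX1 read 14383, 12725 and 13463 at passage 4, 13668, 12688 and 17262 in regenerated cells and 12826, 11764 and 13225 at passage 1. It differed by 0.10 at passage 4 (adjusted p = 0.736) and by 0.19 in regenerated cells (adjusted p = 0.418).

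In glutathione synthesis, GCLC, the catalytic subunit of the rate-limiting enzyme, read 356, 425 and 272 at passage 4, 531, 1272 and 806 in regenerated cells, and 1005, 859 and 973 at passage 1. Passage 4 arrays were below all others. GCLC fell against passage 1 (log2 -1.41, SE 0.29, adjusted p = 0.0208), and the difference from regenerated cells was -1.20 (SE 0.29, adjusted p = 0.0193). Its other probe sets differed from passage 1 by -1.34 (adjusted p = 0.0358) and -0.83 (adjusted p = 0.185). Between passage 4 and regenerated cells these differed by -0.47 (adjusted p = 0.356) and 0.30 (adjusted p = 0.599), so neither passed and the call there is uncertain for GCLC. With the labelling block both calls were lost, at -1.50 (adjusted p = 0.131) and -1.34 (adjusted p = 0.217). The call against passage 1 was lost without passage 1 array 2 or 3 or passage 4 array 1 or 3, at -1.47 to -1.24, and that against regenerated cells without passage 4 array 1 or 3 or regenerated array 2 or 3, at -1.22 to -0.89.

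GSR, which reduces oxidised glutathione, read 905, 822 and 1223 at passage 4, 765, 504 and 554 in regenerated cells and 1738, 812 and 1578 at passage 1. Its fall in regenerated cells barely passed (log2 -1.11, SE 0.29, adjusted p = 0.0482) and was lost in 13 of 19 alternatives, among them the labelling block (-0.90) and the fits without passage 1 array 1 or 3, any passage 4 array, or regenerated array 2 or 3 (-1.11 to -0.90). The other GSR probe sets differed between passage 4 and regenerated cells by 2.23 and 2.76 (adjusted p = 0.00776 and 0.00669), where the brightest differed by 0.68 (adjusted p = 0.147). In regenerated cells against passage 1 they did not pass (-1.02 and -1.56, adjusted p = 0.185 and 0.0972). Between passage 4 and passage 1 they differed by 1.21 and 1.20 and the brightest by -0.43, and none of these passed. GCLM and GSS, the other synthesis genes tested with high signals, did not pass in any comparison.

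Glutathione transferases went in both directions at passage 4. GSTA4, which conjugates the lipid aldehyde 4-hydroxynonenal, read 771, 1056 and 1579 at passage 4, 529, 759.8 and 963 in regenerated cells and 409, 504 and 420.1 at passage 1, a rise of 1.27 at passage 4 (SE 0.28, adjusted p = 0.0286). MGST1, a microsomal transferase, read 1464, 1968 and 1416 at passage 4, 1226, 1674 and 2513 in regenerated cells and 5562, 4175 and 2742 at passage 1. MGST1 fell by 1.31 (log2) at passage 4 (SE 0.29, adjusted p = 0.0287) and by 1.20 in regenerated cells (SE 0.29, adjusted p = 0.0370). The GSTA4 call was lost in 6 of 19 alternatives, with median centring (1.11), with the labelling block (1.38), and without passage 1 array 2 or 3 or passage 4 array 2 or 3 (1.00 to 1.36). For MGST1 the passage 4 call was lost in 7 of 19, among them without passage 1 array 2 or any passage 4 array (-1.46 to -1.23). Its regenerated call was lost in 11 of 19, among them without passage 1 array 1 or 2, passage 4 array 1 or 3, or regenerated array 1 or 2 (-1.20 to -0.96). With the labelling block MGST1 was at -1.79 (adjusted p = 0.0532) at passage 4 and at -0.96 (adjusted p = 0.0784) in regenerated cells.

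**Figure D5:**
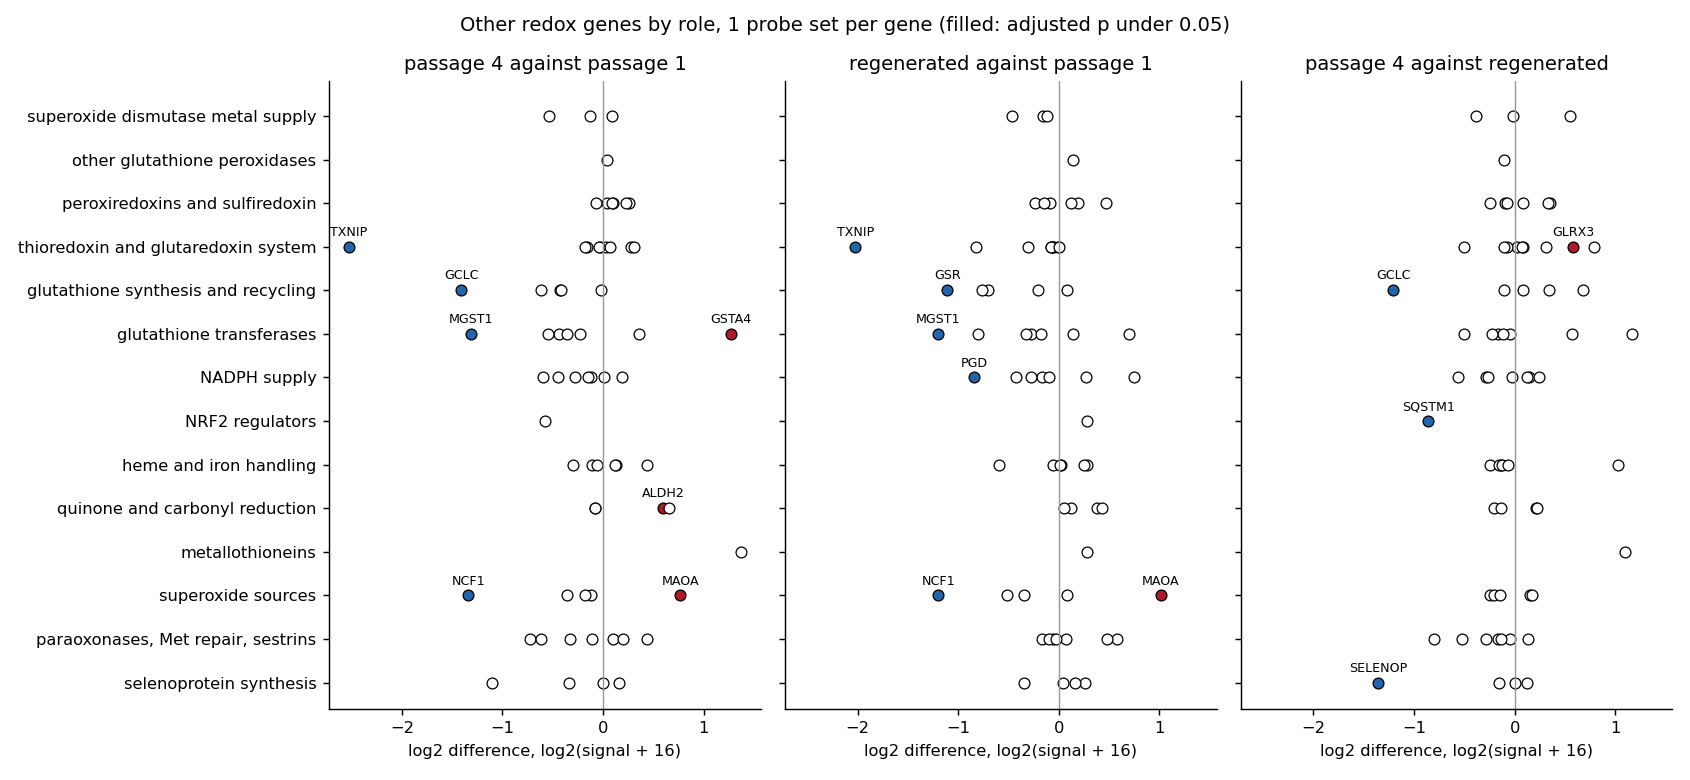
Log2 differences of the 66 tested genes of the wider redox list, 1 point per gene, by role (rows) in the 3 comparisons (panels). Filled points passed (red for higher, blue for lower) and carry the gene name, NCF1 having been tested through its passage 1 signal alone; TXNIP lies lowest of the 66 genes in both comparisons with passage 1.

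PGD, an NADPH-producing enzyme of the pentose phosphate pathway, was lower in regenerated cells, at 1794, 1235 and 1356 against 2005, 2495 and 3489 at passage 1 (log2 -0.84, SE 0.21, adjusted p = 0.0435). The PGD call held in 7 of 19 alternatives and was lost without passage 1 array 2 or 3, any passage 4 array, or regenerated array 2 or 3 (-0.87 to -0.63). ALDH2, the mitochondrial aldehyde dehydrogenase, was higher at passage 4, at 6801, 6014 and 6539.8 against 4639.8, 4628 and 3586 at passage 1 (log2 0.60, SE 0.14, adjusted p = 0.0366). The ALDH2 call was lost in 10 of 19, among them median centring (0.44), the labelling block (0.47), and the fits without passage 1 array 2 or 3 or any passage 4 array (0.47 to 0.66). No gene of heme and iron handling passed, and the ferritin heavy chain gene FTH1 differed by 0.12 at passage 4 (adjusted p = 0.670) and by 0.27 in regenerated cells (adjusted p = 0.248) against passage 1.

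Among genes whose products make superoxide or hydrogen peroxide, MAOA, the mitochondrial monoamine oxidase A, rose in both groups. It read 5529, 4820.2 and 5634 at passage 4, 5793, 5834 and 7440.4 in regenerated cells, and 3768, 2958 and 2723 at passage 1. The rise was 0.77 at passage 4 (SE 0.16, adjusted p = 0.0247) and 1.01 in regenerated cells (SE 0.16, adjusted p = 0.00534). The regenerated call held in all 19 alternatives. The passage 4 call was lost in 8, among them median centring (0.61), the labelling block (0.49), and the fits without passage 1 array 2 or 3 or any passage 4 array (0.67 to 0.84).

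NCF1, a subunit of the phagocyte NADPH oxidase, was dim, at 17.1, 18.5 and 18.9 at passage 4, 22.9, 19.4 and 23.1 in regenerated cells, and 49.8, 97.2 and 70.9 at passage 1. It was above an array's 40th percentile in the passage 1 arrays alone, so it was tested only because it was higher there. A gene that enters in this way had to differ, and its differences from passage 1, -1.34 at passage 4 and -1.20 in regenerated cells, are therefore given without a test. Of 11 leukocyte markers with a probe set 10 were below the filter. The remaining marker, LAPTM5, was bright in every array and passed in no comparison. It read 4269 to 5573 at passage 4, 5982 to 7065 in regenerated cells and 4998 to 6710 at passage 1. The part of leukocytes in the NCF1 signal was not tested.

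Between passage 4 and regenerated cells, SQSTM1, which encodes the autophagy receptor p62 that frees NRF2 from its inhibitor, read 3663, 4061 and 4846 at passage 4 and 7486, 6831 and 8456 in regenerated cells, against 5518, 7211 and 6017 at passage 1. It was lower at passage 4 than in regenerated cells, with a log2 difference of -0.86 (SE 0.16, adjusted p = 0.00638), and the call was lost only with the labelling block (-0.60, adjusted p = 0.283). SELENOP, the secreted selenium carrier, read 558, 2079.7 and 1056 at passage 4, 2140.2, 3577 and 2799 in regenerated cells, and 2804, 1827 and 2455 at passage 1. SELENOP differed between passage 4 and regenerated cells by -1.36 (SE 0.38, adjusted p = 0.0374). It was lost in 7 of 19 alternatives, among them the labelling block (-1.76, adjusted p = 0.219) and the fits without passage 4 array 1 or 3 or regenerated array 2 or 3 (-1.35 to -0.90).

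The genes whose pattern over the 9 arrays was nearest to a member with a call were found by the root mean square (RMS) difference of centred log2 values among 7650 named probe sets. For SOD3 these were CAPNS1 (RMS 0.54), C1H15orf48 (0.65) and STX11 (0.66), while SOD3 itself varied around its mean by 1.32. CAPNS1, the small calpain subunit, read 325, 125 and 269 at passage 4, 932, 439 and 658 in regenerated cells, and 2099.5, 1598 and 402 at passage 1.

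For GPX3 the nearest were ZBP1 (RMS 0.45), RSAD2 (0.54) and CAPNS1 (0.54), while GPX3 varied by 1.19. ZBP1, a sensor of nucleic acids induced by interferon, read 211, 167 and 288 at passage 4, 508, 209 and 208 in regenerated cells, and 1435, 1699 and 953 at passage 1. For the dimmer GPX4 probe set they were the mitotic kinase genes AURKB (RMS 0.31) and AURKA (0.38), and STEAP1 (0.40), while that probe set varied by 0.78. AURKB read 902, 778 and 766 at passage 4, 385, 242 and 257 in regenerated cells, and 275, 455 and 409 at passage 1.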

How the data were processed

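RNA of 9 samples was hybridised to Affymetrix porcine arrays, 3 per group. The deposited intensity of each probe set is linear and comes from MAS5, per the submitters' processing notes. The MAS5 version was not given in the sources used here, nor were its settings. After trimming 2% from both ends every array averaged 500.1, so no further normalization was applied. Of 24123 probe sets, 188 controls were left out, and a probe set was tested where at least 3 of 9 arrays lay above their own 40th percentile. Values were log2(signal + 16), fitted over all 9 arrays with limma 3.58.1 under R 4.3.3 (lmFit, eBayes with intensity trend; 6 residual and 5.65 prior degrees of freedom), with two-sided p-values adjusted by Benjamini-Hochberg within each comparison over 15275 probe sets. The script was tested on simulated data. Same-numbered arrays of different groups deviated together in 1 of 9 pairs (r -0.14 to 0.19, over 0.1 required). The reported fit therefore did not pair arrays by number. With 3 arrays per group this check cannot exclude a pairing.

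A single symbol was annotated for 10099 probe sets, 198 carried several, and 13826 had none. The members, the wider list and the marker lists were chosen with earlier results of these data known. Named were all members, the wider-list genes past the threshold, up to 2 bright others per role, and the 3 genes nearest to each called member. Alternatives were offsets of 1 and 64, no filter or a 60th percentile filter, quantile normalization, median centring, no intensity trend, fits of the 2 groups alone, a replicate block, a block for the labelling kind, and leaving out each array. The labelling kind is the split at the largest gap in the 5' minus 3' signal of the dap and thr spike-ins.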

Additional observations from a re-analysis of the deposited data

Results flagged for a closer look

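Passage 4 and regenerated cells were each compared with passage 1, and the test of passage 4 against regenerated cells is the test of the difference between those changes. It passed for SOD3 (-2.18 on the log2 scale, lower at passage 4 in all 3 arrays than in all 3 regenerated arrays) and for GPX4 probe set 2 (1.61, higher in all 3). In the wider list it passed for GLRX3 (0.58), GCLC (-1.20), SQSTM1 (-0.86) and SELENOP (-1.36). The other 2 GCLC probe sets did not pass in this comparison (-0.47 and 0.30; adjusted p = 0.356 and 0.599). Adjusted p-values of the wider-list calls ran from 0.00638 for SQSTM1 to 0.0374 for SELENOP. The dimmer GSR probe sets, which the list does not use, also passed in this comparison (2.23 and 2.76), where the brightest did not (0.68). All passage 4 arrays were on 1 side of the labelling division and all regenerated arrays on the other. The block therefore rests on passage 1 array 1 against passage 1 arrays 2 and 3. With the labelling block the calls of SOD3, GLRX3, GCLC, SQSTM1 and SELENOP were lost (adjusted p = 0.117, 0.153, 0.217, 0.283 and 0.219), and that of GPX4 probe set 2 was kept (adjusted p = 0.0383). Causes of these differences were not tested.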

How the results depend on the processing

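With each array left out, calls over all probe sets ran from 242 to 1398 for passage 4 against passage 1, from 291 to 1237 for regenerated against passage 1 and from 895 to 2403 for passage 4 against regenerated. Antioxidant probe sets called ran from 0 to 3, 0 to 2 and 1 to 3, and wider-list genes from 1 to 10, 2 to 6 and 1 to 7. The wider-list counts in this section take in NCF1 wherever it passed against passage 1, although it entered only through the passage 1 arrays. The labelling block, with 5 residual degrees of freedom, gave 150 calls (731 reported) for passage 4 against passage 1 and 38 (1907 reported) against regenerated; antioxidant calls against regenerated were 1 there (2 reported), and wider-list calls 0 in both. Fitting 2 groups alone gave 479 calls against 840 for regenerated against passage 1, with 1 antioxidant call (0 reported) and 2 wider-list calls (6 reported), and 8 wider-list calls (4 reported) for passage 4 against regenerated. The replicate block gave 554 calls and 3 wider-list calls for regenerated against passage 1. With it GPX1 passed for passage 4 against regenerated (1.58, adjusted p = 0.0382), and MGST1, PGD and ALDH2 lost calls. Apart from NCF1, which is given without a test, the block changed no other call of a member or of a wider-list gene with a reported call. Wider-list calls for passage 4 against regenerated were 6 with it (4 reported). Median centring gave 4 wider-list calls at passage 4 and 1 antioxidant call in regenerated cells, and split the calls at passage 4 as 299 higher and 437 lower against 414 and 317, and against regenerated as 1023 and 923 against 1241 and 666. Without the intensity trend the wider list had 4, 3 and 2 calls, and with no filter 3 in regenerated cells. With 1 probe set per gene, 1 antioxidant call was left for passage 4 against regenerated. Depth in the sense of reads does not apply to arrays: signal over background limits dim probe sets, and SOD3 lay above the 40th percentile in 1 of 3 passage 4 arrays.

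Directions turned only for differences that had not passed, and the causes were not tested. For passage 4 against passage 1, SOD1 was -0.126 with median centring, -0.0667 with the labelling block and -0.0288 to 0.107 with an array left out; GPX1 was -0.0786, -0.513 and -0.198 to 0.370; and TXNRD1 probe set 3 was -0.0342, -0.560 and -0.197 to 0.461. For regenerated against passage 1, CAT was 0.00503 with quantile normalization, 0.0359 with the labelling block and -0.0598 to 0.0433 with an array left out. TXNRD1 probe set 3 was 0.00259 with an offset of 1, 0.0186 with quantile normalization, 0.340 with the labelling block and -0.318 to 0.340 with an array left out, and GCLC was -0.517 to 0.101. For passage 4 against regenerated, median centring gave SOD2 -0.0534, GPX4 probe set 1 -0.0481 and TXNRD1 probe set 3 -0.00467. The labelling block gave SOD2 -0.760, GPX4 probe set 1 -0.0478, HMOX1 0.0256, TXNRD1 probe sets 0.292, 0.135 and -0.900, TXNIP 0.896 and NCF1 0.446. Leaving out an array gave SOD1 -0.336 to 0.0248, SOD2 -0.245 to 0.563, GPX4 probe set 1 -0.0379 to 0.240, NQO1 -0.389 to 0.0286 and MGST1 -0.357 to 0.156.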
